A study of Homo sapiens with 6 samples.

Results

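The nuclear genes for the mitochondrial respiratory chain, for protein import into mitochondria, for the mitochondrial ribosome and for the metabolite carriers of the inner membrane were followed in Rh30 cells expressing pannexin 1 (PANX1), a channel protein of the plasma membrane. Genes were taken by name, as all those whose symbol starts with NDUF, UQCR, COX followed by a digit, ATP5, TIMM, TOMM, MRPL, MRPS, SLC25 or CHCHD, and 36 of the 1273 genes in the deposited table met this rule. They comprised 10 genes of complex I, 2 of complex III, 2 of complex IV, 2 of the ATP synthase, 7 and 3 of the large and small subunits of the mitochondrial ribosome, 2 of the inner and 1 of the outer membrane translocase, 5 carriers and 2 CHCHD genes. Rh30 is an established human alveolar rhabdomyosarcoma line, a tumor type with features of developing skeletal muscle, and RNA was sequenced from 3 libraries of stable Rh30 cells expressing PANX1 and 3 of stable Rh30 cells carrying the GFP control vector. Both lines had been made with lentiviral vectors and drug selection, carried the CymR repressor that keeps the insert silent until cumate is added, and were induced for 48 h at 30 µg/mL cumate. The inducible vectors of this system also express GFP from a constitutive EF1 promoter, and the sources used here do not say whether each line was 1 clone or a pool. Each value is an FPKM, which is a count of fragments divided by transcript length and by the total mapped in the library. This unit keeps no counts. The study's methods give the total reads sequenced per library, but not the fragments behind each gene's value. All genes of the table had been called changed by the authors in the same comparison, so the tests below describe the spread between libraries and are not independent evidence of a change.

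Oxidative phosphorylation passes electrons from NADH through complexes I, III and IV to oxygen, and the proton gradient that results drives the ATP synthase. Most subunits are encoded in the nucleus, made in the cytosol and imported through the TOMM and TIMM translocases, while the few encoded by mitochondrial DNA are translated on a ribosome whose proteins, the MRPL and MRPS families, are themselves imported. SLC25 carriers move metabolites such as citrate, dicarboxylates and glutamate across the inner membrane. Skeletal muscle relies heavily on this machinery.

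PANX1 itself was measured at 37.8, 35.3 and 28.1 FPKM in GFP replicates 1, 2 and 3, and at 124, 184 and 123.3 FPKM in PANX1 replicates 1, 2 and 3. The ratio of means was 4.26, and no PANX1 library came near the GFP range (two-sided exact permutation p = 0.1, which is as low as 3 against 3 libraries can reach). Of 12 marker genes of the skeletal muscle lineage, 4 were among the table's genes (CDH15, DES, FGFR4 and MYH8). DES, the muscle intermediate filament desmin, was abundant at 214, 277 and 354 FPKM in GFP and 384, 427 and 571 FPKM in PANX1 libraries. CDH15 and FGFR4 were also higher in PANX1 cells (log2 ratios of 1.46 and 1.29), but after median-of-ratios scaling, described below, their log2 ratios were 0.20 and 0.13 and that of DES turned from 0.71 to -0.32. MYH8, the perinatal myosin heavy chain, went the other way, at 0.388, 0.606 and 0.883 FPKM in GFP and 0.115, 0.260 and 0.0301 FPKM in PANX1 libraries, and fell by limma (log2 ratio -2.21, adjusted p = 0.0354). None of the 3 epithelial, 1 immune and 1 endothelial markers was listed, which says nothing about their levels, because only called genes were in the table.

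PANX1 replicate 3 stood apart from the other libraries. The FPKM of the table's genes summed to 34950, 38502 and 44473 in the GFP libraries and to 53904 and 56720 in PANX1 replicates 1 and 2, but to 105929 in PANX1 replicate 3. All 36 mitochondrial genes were highest in PANX1 replicate 3, as were 85% of the table's genes. PANX1 was not among them. For that reason the summaries of the 36 genes and of each family are given with and without this library. The sample descriptions give PANX1 replicates 1 and 3 the same sequencing index, and likewise GFP replicate 1 and PANX1 replicate 2, so that not all libraries can have shared a lane, but no lane or run is stated.

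Mean FPKM was above that of GFP in all 36 genes (in 20 of the 36 after median-of-ratios scaling, defined below), beside 1108 of the table's 1273 genes (699 after scaling). In 34 of the 36 the PANX1 and GFP values did not overlap, and the exceptions were NDUFA7 and MRPS34. Of the table's 1273 genes, 1044 (82%) did not overlap and were higher. A further 151 did not overlap and were lower, and only 78 overlapped. The median log2 ratio of mean FPKM over the 36 genes was 1.26, beside 1.23 over the whole table, and the 3 PANX1 libraries set against the GFP mean gave medians of 0.81, 0.70 and 1.97, beside 0.77, 0.61 and 1.87 over the table. By this median, these genes moved as a group by about as much as the table they were drawn from. After the GC correction described below, the median change by limma was 0.46 over the 36 genes and 0.19 over the table. Both sizes depend on the reference GC content of that correction. In limma on log2(FPKM + 1) with Benjamini-Hochberg adjustment over the table, 23 of the 36 genes rose (adjusted p under 0.05, 63.9%) and 0 fell, whereas 33.5% of the table's genes rose and 0.707% fell. At an unadjusted p under 0.05, 31 of the 36 were higher and 0 lower, beside 744 and 43 of the table's 1273 genes. The 36 genes had a median GFP level of 19.1 FPKM and the table one of 5.66 FPKM, and the scale with 1 added compresses low values. The part of this difference in level in the share of calls was not tested. Together the 36 genes took 3.15%, 3.26% and 3.27% of the table's summed FPKM in GFP and 3.74%, 3.58% and 4.18% in PANX1 libraries, and these ranges did not overlap. The table's sum also holds 165 genes with a lower mean in PANX1 cells, whereas all 36 were higher. Shares of sets outside the 36 genes were not computed, so this rise has no background beside it.

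**Figure D1:**
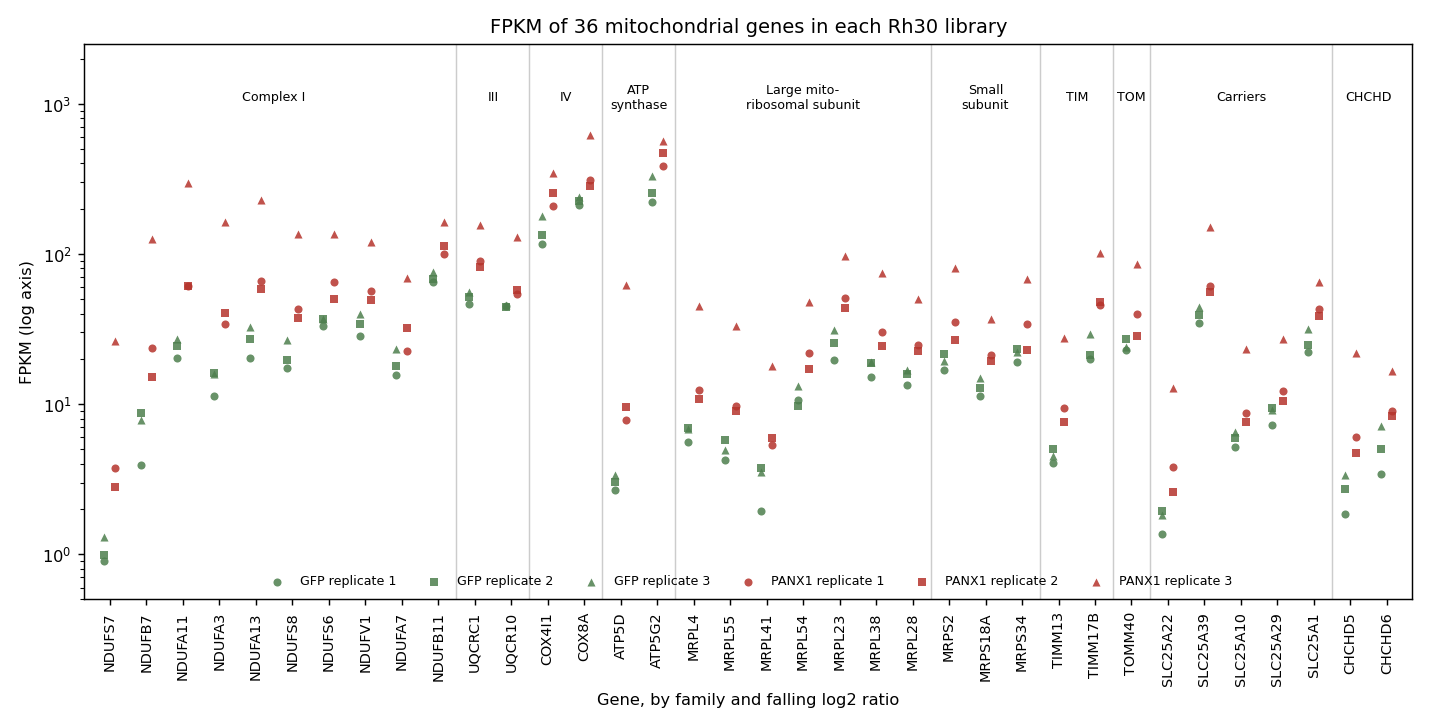
FPKM (log axis) of each of the 36 genes in each of the 6 libraries, grouped by complex or family and ordered by falling log2 ratio within each. Circles, squares and triangles are replicates 1, 2 and 3, with GFP in green and PANX1 in red. The values are as deposited, and after median-of-ratios scaling 20 of the 36 genes are higher in PANX1 cells. PANX1 replicate 3 is the highest point of all 36 genes, and green and red points overlap only for NDUFA7 and MRPS34.

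Without PANX1 replicate 3 all 36 genes remained higher, with a median log2 ratio of 0.72 (0.70 over the table), and limma called 34 of the 36 higher, beside 78.1% of the table called higher and a further 146 genes called lower. The single log2 ratios then ranged from 0.32 (UQCR10) to 1.61 (NDUFS7), where they ranged from 0.82 (ATP5G2) to 3.36 (NDUFS7) with that library. SLC25A29 (adjusted p = 0.0686) and MRPS34 (adjusted p = 0.0626) were the exceptions, and over all alternatives tried their adjusted p ranged from 0.0686 to 0.425 and from 0.0331 to 0.628. Calls also depended on the control libraries, since 1, 4 and 7 of the 36 were called without GFP replicate 1, 2 and 3, respectively, beside 8, 14 and 51 of the table's genes called higher. The size of the change moved little, with median log2 ratios over the 36 genes of 1.176, 1.265 and 1.326 (1.261 with all libraries). All 36 remained higher each time. Median-of-ratios scaling, which sets the median gene of the table equal across libraries, moved the table's median log2 ratio from 1.23 to 0.043 and that of the 36 genes to 0.037. On that scale 20 of the 36 genes were higher in PANX1 cells, 0 were called by limma with Benjamini-Hochberg adjustment (0% of the table) and 6 were higher at an unadjusted p under 0.05, beside 145 of the table's genes higher and 171 lower. The scaled median is given below for each family, to be read beside the table's 0.043.

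Complex I, the NADH dehydrogenase that feeds electrons into the chain, had the highest median log2 ratio of the families with more than 2 genes. Its 10 genes had a median log2 ratio of 1.95 (1.06 without PANX1 replicate 3, 0.65 after median-of-ratios scaling, where 7 of the 10 were higher). By limma 8 of the 10 rose (33.5% of the table), and the other two, NDUFA7 (adjusted p = 0.0591) and NDUFB11 (adjusted p = 0.0628), did not pass. Without PANX1 replicate 3 all 10 passed, in a fit that called 78.1% of the table higher.

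NDUFS7, a subunit of the part of complex I that reduces ubiquinone, had the largest ratio of mean FPKM of the 36 genes, although the limma changes of NDUFB7, ATP5D, NDUFA11 and NDUFA3 were larger. It lies on chromosome 19 of hg19 from 1383883 to 1395588 (XLOC_010453) and was measured at 0.907, 0.991 and 1.31 FPKM in GFP and at 3.74, 2.80 and 26.3 FPKM in PANX1 replicates 1, 2 and 3. NDUFS7 was thus the lowest of the 36 genes in every GFP library, and each PANX1 library lay above all GFP libraries. Its ratio of means was 10.2 (log2 ratio 3.36), falling to a ratio of 3.06 without PANX1 replicate 3, and limma gave a change of 1.94 ± 0.456 (SE, n = 3 per group, adjusted p = 0.0013). The other subunit of the ubiquinone-reducing part, NDUFS8, which binds iron-sulfur clusters, had a log2 ratio of 1.77 (adjusted p = 0.0051).

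The sequence before the NDUFS7 start is shown because this gene had the largest ratio of means, taken from the RefSeq promoter table (GRCh38.p14, chr19:1383657-1383906, plus strand, 5′ to 3′). Capitals mark GCATGCGC, the reverse complement of an 8-letter part of the recognition motif of NRF1, a transcription factor known for nuclear genes of mitochondria (the full motif is not in this sequence), and the GC box GGGCGG bound by SP factors.
NDUFS7: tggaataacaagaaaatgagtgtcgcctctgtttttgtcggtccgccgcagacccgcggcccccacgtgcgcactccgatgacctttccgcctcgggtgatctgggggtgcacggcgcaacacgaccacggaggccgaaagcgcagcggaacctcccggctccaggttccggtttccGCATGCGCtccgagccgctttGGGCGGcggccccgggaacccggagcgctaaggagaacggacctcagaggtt

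The membrane arm of complex I, which pumps protons, was represented by 5 genes. NDUFB7 was measured at 3.96, 8.77 and 7.85 FPKM in GFP and at 23.5, 15.1 and 125 FPKM in PANX1 libraries (log2 ratio 2.99, limma change 2.29 ± 0.458 (SE), adjusted p = 0.00011). NDUFA11, an accessory subunit of the same arm, was measured at 20.2, 24.5 and 27.1 FPKM in GFP and at 60.9, 61.1 and 296 FPKM in PANX1 libraries (log2 ratio 2.54, limma change 2.08 ± 0.387 (SE), adjusted p = 3.4e-05). NDUFA3 was measured at 11.3, 16.1 and 15.9 FPKM in GFP and at 34.2, 40.4 and 163 FPKM in PANX1 libraries (log2 ratio 2.46, adjusted p = 0.00013). In all 3 genes even the lower of PANX1 replicates 1 and 2 exceeded the highest GFP library, but the size of the change did depend on PANX1 replicate 3, without which the log2 ratios of NDUFB7, NDUFA11 and NDUFA3 were 1.49, 1.35 and 1.37. NDUFA13, known also as GRIM-19 and named for its part in interferon and retinoic acid induced cell death, was measured at 20.3, 27.3 and 32.6 FPKM in GFP and at 65.6, 58.2 and 229 FPKM in PANX1 libraries (log2 ratio 2.13, 1.21 without PANX1 replicate 3, adjusted p = 0.00027). NDUFB11 had the smallest change of the 10 and the highest mean level, at 64.5, 68.1 and 76.2 FPKM in GFP and 100, 113 and 164 FPKM in PANX1 libraries. Its log2 ratio was 0.85, its values did not overlap, and its sign turned after median-of-ratios scaling (limma change -0.25).

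The NADH-oxidizing tip of complex I was represented by NDUFV1, which carries the flavin, by NDUFS6 and by NDUFA7. NDUFS6 (log2 ratio 1.23, adjusted p = 0.0301) and NDUFV1 (log2 ratio 1.14, adjusted p = 0.0373) rose by limma, although NDUFV1 was at -0.04 after median-of-ratios scaling. NDUFA7 was measured at 15.7, 18.0 and 23.4 FPKM in GFP and at 22.4, 32.1 and 69.4 FPKM in PANX1 libraries. GFP replicate 3 thus lay above PANX1 replicate 1 (p = 0.2 by the exact permutation test, two-sided), and the change was -0.10 after scaling. The NDUFA7 locus overlaps RPS28, a gene of the cytosolic ribosome on the opposite strand that is also in the table, and the library kit was not stated to keep strand, so reads of the overlapping part cannot be told apart.

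The transcript levels of the 10 complex I genes, out of 48 annotated NDUF genes, lay closer together in PANX1 cells. These are RNA values and say nothing of protein. In GFP replicates 1, 2 and 3 the most abundant transcript stood at 71.1, 68.7 and 58.1 times the least abundant. In the PANX1 replicates it stood at 26.7, 40.4 and 11.2 times. The least abundant in every library was NDUFS7, the gene with the largest ratio, at 0.907, 0.991 and 1.31 FPKM in GFP. The SD of log2 FPKM over the 10 genes was 1.74, 1.66 and 1.63 in GFP and 1.34, 1.47 and 0.97 in PANX1 libraries, with no overlap between the groups. Neither measure depends on scaling between libraries. The same narrowing without overlap was seen over all 36 genes, with SDs of 1.90, 1.79 and 1.83 in GFP and 1.65, 1.75 and 1.41 in PANX1 libraries, and over the table, with 2.60, 2.55 and 2.55 in GFP and 2.37, 2.40 and 2.48 in PANX1 libraries, so it was not particular to complex I. Over the 10 mitochondrial ribosome genes the corresponding SDs were 1.10, 0.95 and 1.02 in GFP and 0.98, 0.85 and 0.72 in PANX1 libraries, where the groups overlapped. Across the complex I genes the log2 ratio fell with the GFP level (Spearman rho -0.73, n = 10 genes from the same 6 libraries), and the GFP level also enters the ratio. Over the 36 genes rho was -0.64 and over the table -0.56.

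**Figure D2:**
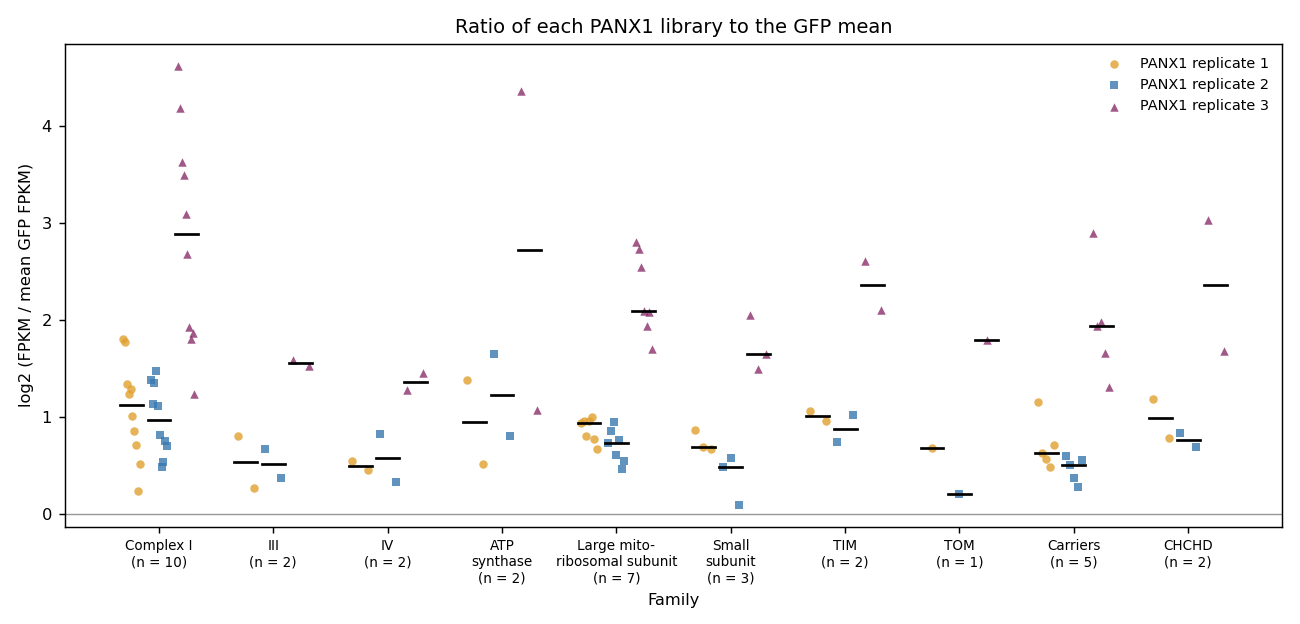
Log2 ratio of the FPKM in each PANX1 library to the mean GFP FPKM, for each of the 36 genes, by family. Points are genes, in orange, blue and purple for PANX1 replicates 1, 2 and 3, and black bars are medians over the genes of a family. All points lie above 0, and complex I has medians of 1.13, 0.97 and 2.89; after median-of-ratios scaling the medians of complexes III and IV, the small mitochondrial ribosome subunit, the outer membrane translocase and the carriers fall below 0.

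Complexes III and IV, which pass electrons from ubiquinol to cytochrome c and on to oxygen, had medians below that of complex I. The complex III pair had a median log2 ratio of 0.97 (0.54 without PANX1 replicate 3), which turned to -0.19 after median-of-ratios scaling. UQCRC1, a core subunit of complex III, was measured at 46.4, 51.8 and 56.1 FPKM in GFP and at 90.3, 82.2 and 155 FPKM in PANX1 libraries and rose by limma (log2 ratio 1.09, adjusted p = 0.0332; -0.04 after scaling). UQCR10, a small accessory subunit, was the steadiest of the 36 genes in GFP cells, at 44.7, 44.1 and 45.6 FPKM, and was measured at 54.3, 57.9 and 129 FPKM in PANX1 libraries (log2 ratio 0.85, adjusted p = 0.0889). Its values did not overlap, but PANX1 replicates 1 and 2 were only slightly above GFP.

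The complex IV pair had a median log2 ratio of 0.88 (0.55 without PANX1 replicate 3), which turned to -0.23 after scaling. COX4I1, the common form of subunit IV, was measured at 116, 135 and 178 FPKM in GFP and at 209, 253 and 346 FPKM in PANX1 libraries and rose by limma (log2 ratio 0.92, adjusted p = 0.0471; -0.16 after scaling). COX8A, the common form of subunit VIII, was measured at 212, 225 and 240 FPKM in GFP and at 309, 284 and 619 FPKM in PANX1 libraries (log2 ratio 0.84, adjusted p = 0.0786). Both genes were higher with groups that did not overlap, as were 82% of the table's genes. Both were among the 3 most abundant of the 36 genes. The COX4I1 locus overlaps EMC8 on the opposite strand.

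The ATP synthase pair held both the second largest and the smallest ratio, with a median log2 ratio of 1.98 (1.10 without PANX1 replicate 3, 0.72 after scaling). ATP5D (now ATP5F1D), the delta subunit of the rotating central stalk, lies on chromosome 19 of hg19 from 1241749 to 1244824 and was measured at 2.67, 3.04 and 3.35 FPKM in GFP and at 7.86, 9.50 and 62.2 FPKM in PANX1 libraries. Its log2 ratio was 3.14 (1.52 without PANX1 replicate 3), with a limma change of 2.17 ± 0.521 (SE, adjusted p = 0.0016). ATP5G2 (now ATP5MC2), which encodes 1 of the precursors of the membrane-embedded c subunit, was measured at 221, 255 and 328 FPKM in GFP and at 385, 471 and 565 FPKM in PANX1 libraries. Its log2 ratio was 0.82 (adjusted p = 0.0666), with groups that did not overlap and a limma change of -0.25 after scaling.

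The 7 genes of the large mitochondrial ribosome subunit had a median log2 ratio of 1.37 (0.84 without PANX1 replicate 3, 0.18 after scaling, where 6 of the 7 were higher). All 7 were higher with groups that did not overlap (82% of the table). By limma 6 rose (33.5% of the table), namely MRPL4, MRPL55, MRPL41, MRPL54, MRPL23 and MRPL38. MRPL4 had the largest ratio, at 5.59, 6.98 and 6.85 FPKM in GFP and 12.4, 10.8 and 45.3 FPKM in PANX1 libraries (log2 ratio 1.82, adjusted p = 0.0297). MRPL23, the most abundant, was measured at 19.7, 25.7 and 31.0 FPKM in GFP and at 50.9, 43.4 and 97.5 FPKM in PANX1 libraries (log2 ratio 1.33, adjusted p = 0.0190). MRPL28, the smallest change, was measured at 13.4, 15.9 and 16.8 FPKM in GFP and at 24.6, 22.5 and 49.9 FPKM in PANX1 libraries (log2 ratio 1.07, adjusted p = 0.0637; -0.09 after scaling). The 7 log2 ratios spanned 1.07 to 1.82, a narrower range than the 0.85 to 3.36 of complex I.

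The 3 genes of the small subunit had a median log2 ratio of 0.98 (0.64 without PANX1 replicate 3), which turned to -0.13 after scaling. MRPS2 rose by limma, at 16.9, 21.4 and 19.2 FPKM in GFP and 35.1, 26.9 and 80.1 FPKM in PANX1 libraries (log2 ratio 1.30, adjusted p = 0.0338). MRPS34 was measured at 18.96, 23.2 and 22.3 FPKM in GFP and at 34.3, 23.0 and 67.7 FPKM in PANX1 libraries (log2 ratio 0.96, adjusted p = 0.0836). PANX1 replicate 2 thus fell inside the GFP range (p = 0.2 by the exact permutation test, two-sided), and the MRPS34 locus overlaps EME2 on the other strand. MRPS18A (log2 ratio 0.98, adjusted p = 0.0779) had groups that did not overlap. For comparison, the 25 cytosolic ribosomal protein genes of the table had a median log2 ratio of 1.02 (0.68 without PANX1 replicate 3). It turned to -0.13 after scaling, and 12 of the 25 rose by limma (33.5% of the table).

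Of the import machinery, both inner membrane genes rose by limma (33.5% of the table). Their median log2 ratio was 1.59 (0.95 without PANX1 replicate 3, 0.37 after scaling). TIMM17B, a channel component of the translocase for proteins with a presequence, was measured at 20.002, 21.3 and 29.4 FPKM in GFP and at 46.0, 48.0 and 102 FPKM in PANX1 libraries (log2 ratio 1.47, adjusted p = 0.0097), and its locus overlaps PQBP1, another gene of the table, on the opposite strand. TIMM13, a small chaperone of the intermembrane space, was measured at 4.02, 5.02 and 4.49 FPKM in GFP and at 9.42, 7.54 and 27.5 FPKM in PANX1 libraries (log2 ratio 1.72, adjusted p = 0.0410). The TIMM13 entry runs from 2389784 to 2427875 on chromosome 19, far beyond the annotated gene (2425623 to 2427584), and overlaps LMNB2 and TMPRSS9, so reads of these genes cannot be told apart from its own. TOMM40, the pore of the outer membrane, was measured at 23.1, 27.0 and 23.97 FPKM in GFP and at 39.7, 28.5 and 85.6 FPKM in PANX1 libraries (log2 ratio 1.05, 0.47 without PANX1 replicate 3, adjusted p = 0.0643), which did not overlap, and its limma change turned to -0.17 after scaling.

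The 5 carriers had a median log2 ratio of 1.17 (0.57 without PANX1 replicate 3), which turned to -0.08 after scaling. SLC25A22, a glutamate carrier, was measured at 1.36, 1.95 and 1.82 FPKM in GFP and at 3.80, 2.59 and 12.7 FPKM in PANX1 libraries and rose by limma (log2 ratio 1.90, adjusted p = 0.0373; 0.38 after scaling). SLC25A39, a glutathione carrier and the most abundant of the 5, was measured at 34.5, 39.0 and 44.5 FPKM in GFP and at 60.8, 55.9 and 151 FPKM in PANX1 libraries and also rose (log2 ratio 1.18, adjusted p = 0.0347; -0.04 after scaling). SLC25A1, the citrate carrier, was measured at 22.3, 24.8 and 31.5 FPKM in GFP and at 43.1, 38.6 and 65.0 FPKM in PANX1 libraries (log2 ratio 0.90, adjusted p = 0.0686). The dicarboxylate carrier SLC25A10 and the carrier of basic amino acids SLC25A29 had log2 ratios of 1.17 and 0.95 and did not pass. All 5 carriers were higher with groups that did not overlap, as were 82% of the table's genes.

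The CHCHD genes encode small proteins with paired cysteine motifs, and the pair had a median log2 ratio of 1.58 (0.88 without PANX1 replicate 3, 0.35 after scaling). CHCHD5 was measured at 1.85, 2.73 and 3.38 FPKM in GFP and at 6.05, 4.73 and 21.8 FPKM in PANX1 libraries and rose by limma (log2 ratio 2.03, adjusted p = 0.0306; 0.54 after scaling). CHCHD6, a subunit of the MICOS complex that shapes the cristae, was measured at 3.44, 5.02 and 7.10 FPKM in GFP and at 8.97, 8.36 and 16.7 FPKM in PANX1 libraries (log2 ratio 1.13, adjusted p = 0.0885). The 2 genes were higher with groups that did not overlap, as were 82% of the table's genes.

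Chromosome 19 carried the 6 members with the largest log2 ratios, a pattern noticed after the values were seen and given as a description. It held 11 of the 36 genes (30.6%) and 18.0% of the table's genes. Among the members, 6 were at least 2 times the GFP mean in each of PANX1 replicates 1 and 2, beside 11.2% of the table's genes. These were NDUFS7, NDUFB7, NDUFA11, NDUFA3, NDUFA13 and ATP5D, all on chromosome 19, against 0 of the 25 members on other chromosomes. Just inside this limit lay NDUFA13, with log2 ratios of 1.29 and 1.12 in PANX1 replicates 1 and 2, and NDUFB7, with 1.78 and 1.14. Just outside it lay TIMM17B, with 0.97 and 1.03, and MRPL55, with 0.97 and 0.86. In the table, 30 of the 229 genes on chromosome 19 met the limit and 113 of the 1044 elsewhere. The median log2 ratio was 2.13 for the 11 members on chromosome 19 and 1.14 for the 25 elsewhere (1.21 and 0.67 without PANX1 replicate 3), whereas the table had 1.32 and 1.21. After median-of-ratios scaling, 9 of the 11 and 11 of the 25 were higher, beside 146 of the 229 and 553 of the 1044 in the table.

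The 6 genes are spread along the chromosome, from ATP5D at 1241749 and NDUFS7 at 1383883 through NDUFA11 at 5891287, NDUFB7 at 14676890 and NDUFA13 at 19627019 to NDUFA3 at 54606160, on both strands. All 6 of the NDUF genes annotated on chromosome 19 were in the table, whereas 10 of the 48 annotated NDUF genes were in it overall. Over all the families named here, 11 of 24 annotated genes on chromosome 19 were in the table and 36 of 263 in all, and those of chromosome 19 not analysed here included UQCR11, COX6B1, TIMM44 and MRPS12. Of all annotated protein-coding genes, 225 of 1480 on chromosome 19 and 1245 of 20149 in all were in the table. Other chromosome 19 members changed less, among them NDUFA7 (log2 ratio 1.12), TOMM40 (1.05) and MRPL54 (1.37). Outside complex I, 5 members lie on chromosome 19. Within complex I the 6 genes on chromosome 19 had a median log2 ratio of 2.50 and the 4 elsewhere 1.18 (1.36 and 0.66 without PANX1 replicate 3).

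**Figure D3:**
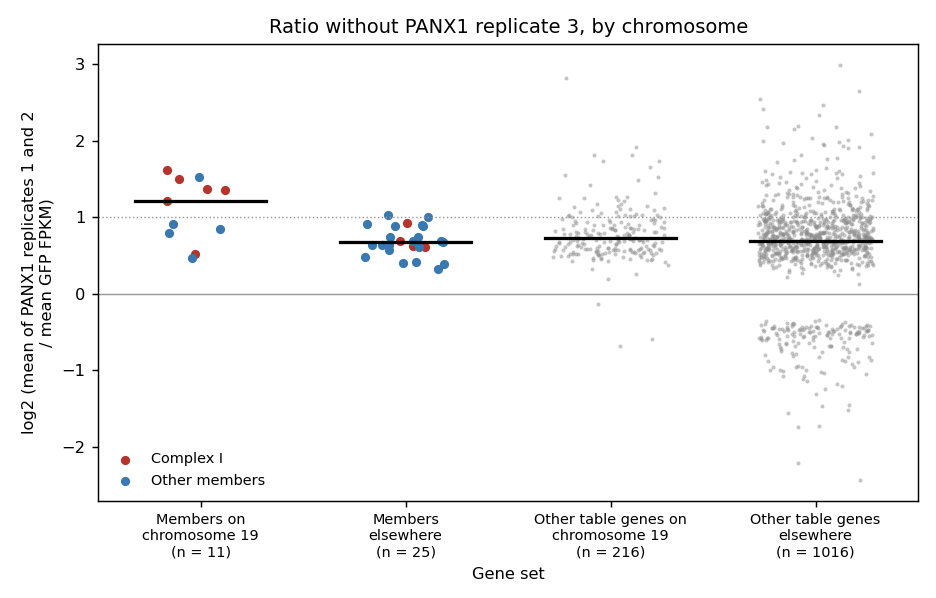
Log2 ratio of the mean FPKM of PANX1 replicates 1 and 2 to the mean GFP FPKM, for the members on chromosome 19 (n = 11), the members elsewhere (n = 25) and the other genes of the table on chromosome 19 and elsewhere. Points are genes, with complex I in red and other members in blue, and black bars are medians. The dotted line is a ratio of 2, and the few genes whose GFP values are all 0 are left out. The members on chromosome 19 have a median of 1.21 and those elsewhere 0.67.

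Transcript GC content differed little between the members and the table, with medians of 60.7% and 61.0%, both above the 49.1% of annotated protein-coding genes. Across the 36 genes, which share the same 6 libraries, the log2 ratio rose with GC content (Spearman rho 0.52), as it did across the table (rho 0.59). The ratio of PANX1 replicate 3 to replicates 1 and 2 rose with it too (rho 0.50 and 0.66, respectively). NDUFA3 departed from this, with a GC content of 56.0% and a log2 ratio of 2.46, and UQCR10, at 47.5%, had the lowest GC content of the 36. After removal, in each library, of the linear trend with GC content, 33 of the 36 genes remained higher, including all 10 of complex I, beside 900 of the table's 1266 genes with a GC value, and 0 were called by limma with Benjamini-Hochberg adjustment (0.711% of the table), with 19 higher at an unadjusted p under 0.05, beside 325 of the table's genes higher and 76 lower. SLC25A10, SLC25A1 and MRPS34 turned lower. The trend was removed relative to a GC content of 49.1%, the median of annotated protein-coding genes, and not to the table's 61.0%. The signs and sizes that remain depend on this reference. The correction also removes any true difference that follows GC content, and the part of base composition in the changes was not tested further.

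**Figure D4:**
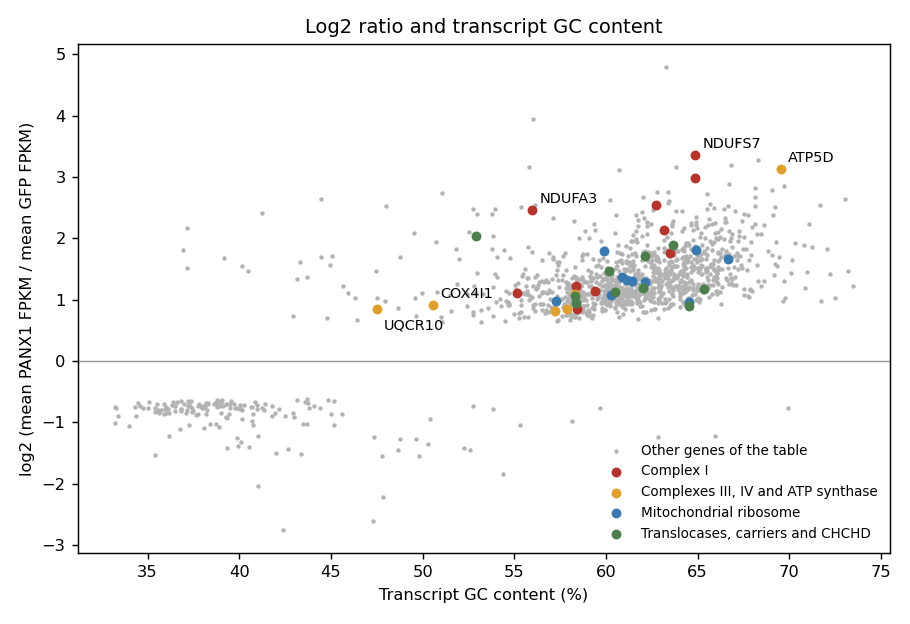
Log2 ratio of mean FPKM, PANX1 over GFP, against the GC content (%) of each gene's transcript. Colored points are the 36 members by group of families, and grey points the other genes of the table with a GC value and a GFP mean above 0. NDUFS7 and ATP5D lie at the top at 64.9% and 69.5% GC, NDUFA3 lies high at 56.0%, and UQCR10 and COX4I1 have the lowest GC content of the members.

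Promoters were compared for the motifs of factors known for mitochondrial genes. RefSeq promoters of 300 bases (250 before and 50 after the start, GRCh38.p14) were found for 34 of the 36 genes, all but ATP5D and MRPL23, and motifs were searched on both strands. AAGATGGCG, the core bound by YY1, was found in 5 of the 34 promoters (14.7%), in 4.33% of 1017 promoters of the table and in 1.75% of all 35116 promoters. In all 5 it lay on the strand of the gene, starting 7 to 24 bases after the start. The motif holds the letters ATG of a start codon. Whether its strand and position follow from the coding start of these genes was not tested. These 5 windows are shown because they share strand and position, 5′ to 3′ with the motif in capitals. They lie, in the order shown, at chr17:75904860-75904888, chr6:43687764-43687792 and chr19:8321343-8321371 on the minus strand, at chr19:1383914-1383942 on the plus strand and at chr3:48609605-48609633 on the minus strand.
MRPL38: ggccggagggAAGATGGCGgcgccctggt
MRPS18A: taggtttttgAAGATGGCGgccctcaagg
NDUFA7: tcgcggacggAAGATGGCGtccgccaccc
NDUFS7: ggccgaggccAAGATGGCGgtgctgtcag
UQCRC1: ctgcagctggAAGATGGCGgcgtccgtgg

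CCGGAAG, the core bound by ETS factors such as GABP, a factor known for respiratory chain genes, was found in 10 of the 34 promoters (29.4%), in 18.9% of the table's promoters and in 10.3% of all promoters. MRPS34 held it 3 times. The windows of the 4 respiratory chain genes that held it follow, with the motif or its reverse complement CTTCCGG in capitals. They lie at chr19:19516204-19516232 (plus strand), chr19:14572073-14572101 (minus strand), chr16:85799686-85799714 (plus strand) and chr11:63974591-63974619 (plus strand).
NDUFA13: tccgcccgggaCCGGAAGtgtgggatact
NDUFB7: gcctaaatgacCCGGAAGctgtgtctgac
COX4I1: ggccttgctctCTTCCGGtcgcgggacac
COX8A: cagctccagaaCTTCCGGccagcgcagcc

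The GC box GGGCGG was found in 67.6% of the 34 promoters, 74.2% of the table's and 45.0% of all. The 8-letter part of the NRF1 motif, GCGCATGC, was found in 2 of the 34 (NDUFS6 and NDUFS7, 5.88%), in 4.92% of the table's and in 3.05% of all promoters, and the ERR motif TCAAGGTCA in 0 of the 34. The full 10-letter NRF1 motif was in 0 of the 34 promoters, in 1.77% of the table's and in 1.24% of all. Promoter GC content had a median of 66.5% for the 34 genes, 67.7% for the table and 58.7% for all promoters. A motif is a match of letters and not a measured binding site. The genes with the YY1 core ranged in log2 ratio from the highest of the 36 (NDUFS7, 3.36) to values near the low end (MRPS18A, 0.98), and NDUFB7, NDUFA11, NDUFA3 and NDUFA13 did not hold it.

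Outside the named families, 178 further genes of mitochondrial function were listed by role, and 17 were in the table. Of these, 16 were higher and 1 lower in PANX1 cells (13 were higher after scaling), and 10 rose by limma, a count whose table background is the 33.5% given above. The median log2 ratio over the 17 genes was 1.35, and 0.80 without PANX1 replicate 3. GADD45GIP1, a protein of the mitochondrial ribosome encoded on chromosome 19, had the largest change by limma (log2 ratio 2.62, adjusted p = 0.0021). It was measured at 4.17, 5.76 and 5.29 FPKM in GFP and 15.9, 11.4 and 66.5 FPKM in PANX1 libraries. Without PANX1 replicate 3 its log2 ratio was 1.42. AURKAIP1, another mitochondrial ribosome protein, rose as well (log2 ratio 1.74, adjusted p = 0.0077), as did the mitochondrial elongation factor TUFM, in an entry shared with MIR4721 (log2 ratio 1.16, adjusted p = 0.0289), and the seryl-tRNA synthetase SARS2 (log2 ratio 1.74, adjusted p = 0.0424). Without PANX1 replicate 3 the log2 ratios of AURKAIP1, TUFM and SARS2 were 0.91, 0.77 and 1.03. The mitochondrial RNA polymerase POLRMT had a log2 ratio of 1.63 and did not pass (adjusted p = 0.0561).

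The matrix proteases CLPP (log2 ratio 1.35, adjusted p = 0.0315) and LONP1 (log2 ratio 1.46, adjusted p = 0.0398), the citric acid cycle subunit IDH3G (log2 ratio 1.64, adjusted p = 0.0227), the ferredoxin FDX1L (log2 ratio 1.96, adjusted p = 0.0346) and the fission protein FIS1 (log2 ratio 1.36, adjusted p = 0.0298) rose by limma. Without PANX1 replicate 3 their log2 ratios were, in this order, 0.75, 0.67, 1.01, 1.02 and 0.85. Cytochrome c and its partner went opposite ways in their means. CYC1, the cytochrome c1 of complex III, was measured at 32.3, 47.5 and 54.1 FPKM in GFP and at 81.8, 80.9 and 177 FPKM in PANX1 libraries and rose (log2 ratio 1.34, adjusted p = 0.0120). CYCS, cytochrome c itself, was measured at 63.2, 69.8 and 72.5 FPKM in GFP and at 45.4, 42.4 and 33.0 FPKM in PANX1 libraries. Its groups did not overlap (log2 ratio -0.77), PANX1 replicate 3 was the lowest, and it did not pass (adjusted p = 0.0786). Its transcript has a GC content of 41.2%, and that of CYC1 61.5%. None of the 11 listed regulators of mitochondrial genes, among them PPARGC1A, NRF1, GABPA, ESRRA and YY1, was among the genes analysed here.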

How the data were processed

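RNA of 6 libraries of Rh30 cells, 3 GFP and 3 PANX1, was sequenced after poly-A selection. The authors deposited FPKM values of 1273 genes per library. The submitters' processing notes name bcl2fastq 1.8.4, cutadapt 1.7.1, TopHat2 2.0.13, Bowtie2 2.2.3, SAMtools 1.0, Cufflinks 2.2.1 and the hg19 build. Cufflinks divides fragments between overlapping genes, and 12 of the 36 loci overlap another annotated protein-coding gene. Counting error was not computed, because the deposited values hold no fragment counts.

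Groups and replicate numbers came from the sample titles. The main test was limma 3.58.1 (R 4.3.3; lmFit, eBayes with trend) on log2(FPKM + 1), with no block, Benjamini-Hochberg adjustment over the 1273 genes and a threshold of 0.05. Limma changes are on that scale, which understates the change of low genes. Log2 ratios are of mean FPKM without a pseudocount. GC content came from GENCODE 44 on hg19, with a value for 1266 genes and all 36 members. The fit was tested on simulated data. Values in every library are given, per family, for the member with the highest mean FPKM and those with the largest and smallest log2 ratio, for members at least 2 times the GFP mean in both PANX1 replicates 1 and 2, and every member called by limma is named. The members, lists and motifs were chosen with earlier results of these data known. Alternatives were pseudocounts of 0.1 and 0.01, a mean FPKM of at least 1, median-of-ratios scaling, no variance trend, a replicate block, GC correction with and without the block, and leaving out each library. Summaries were made with pandas 2.3.3, scipy 1.17.1 and numpy 2.4.6 in Python 3.11.15, and figures with matplotlib 3.10.9.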

Additional observations from a re-analysis of the deposited data

How the results depend on the processing

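The 36 genes were all higher in PANX1 cells in every setting except median-of-ratios scaling and the GC corrections. After median-of-ratios scaling, 20 of the 36 were higher, 17 had groups that did not overlap (445 of the table's genes), 0 members and 0 table genes were called in either direction, the members' median log2 ratio was 0.037, and that of PANX1 was 1.16 in place of 2.09. This scaling divides all genes of a library by 1 factor taken from the table's genes. A turned sign therefore only marks a change below about the table's median. The family medians that turned were complex III (-0.19), complex IV (-0.23), the carriers (-0.080), the small ribosome subunit (-0.13) and TOMM40 (-0.17). The limma changes that turned were those of UQCR10 (-0.34), COX8A (-0.32), ATP5G2 (-0.25), MRPS34 (-0.25), NDUFB11 (-0.25), SLC25A29 (-0.23), SLC25A1 (-0.19), TOMM40 (-0.17), COX4I1 (-0.16), MRPS18A (-0.13), NDUFA7 (-0.096), MRPL28 (-0.087), SLC25A10 (-0.077), UQCRC1 (-0.040), NDUFV1 (-0.040) and SLC25A39 (-0.037). The GC correction, with or without the replicate block, turned MRPS34 (-0.13), SLC25A10 (-0.078) and SLC25A1 (-0.066). It left 0 members and 9 table genes called higher and 0 lower, and with the replicate block 5 members and 61 table genes higher and 6 lower. Without a variance trend, 0 members and 0 table genes were called in either direction, with 30 members higher at an unadjusted p under 0.05, beside 770 table genes higher and 54 lower. The cause of these differences was not tested.

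Leaving out 1 library gave 1 to 34 members called, and 8 to 994 table genes called higher and 0 to 146 lower. Without GFP replicate 1, 2 or 3 the members called were 1, 4 and 7. The table genes called were then 8, 14 and 51 higher and 1, 0 and 0 lower. Without PANX1 replicate 1, 2 or 3 the members called were 18, 27 and 34. The table genes called were then 300, 716 and 994 higher and 3, 23 and 146 lower. With pseudocounts of 0.1 and 0.01, 23 and 23 members were called, beside 500 and 516 table genes higher and 22 and 20 lower. With a mean FPKM of at least 1, 22 members were called, beside 321 of 1161 table genes higher and 4 lower. Same-numbered libraries deviated together with correlations of 0.42, -0.36 and 0.14, so the numbers were taken as names only, although the study's methods call the libraries of the groups matching replicates without saying what they share. A replicate block by the numbers of the titles gave 30 members called (581 table genes higher, 33 lower). ATP5G2, COX8A, NDUFB11, NDUFA7, TOMM40, SLC25A1 and MRPL28 passed by limma in addition (adjusted p from 0.0168 to 0.0456). A block by the numbers of the sample descriptions, which differ, gave 33 (1005 higher, 140 lower). In those numbers GFP replicate 1 and PANX1 replicate 3 have no partner, so neither adds to the estimated change. The limma change of MRPL55 was then 0.71 in place of 1.37.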
